A study of Mus musculus with 22 samples.

Results

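Matrix metalloproteinases (MMPs) and the ADAMTS proteases were followed in mouse lung across 3 doses of a carbon nanotube. The members were 10 genes, Mmp2, Mmp3, Mmp8, Mmp9, Mmp12, Mmp14, Mmp19, Adamts1, Adamts4 and Adamts9, taken through every array probe whose RefSeq accession maps to one of them. They had 11 probes and were 10 of the 16458 named genes expressed in these lungs. Right lung RNA of 22 female C57BL/6 mice, 8 weeks old when the exposures began, was hybridised to dual-colour Agilent arrays. Of these, 5 were controls that received the vehicle, saline containing bronchoalveolar lavage fluid, and 6, 5 and 6 received 18, 54 and 162 µg of Mitsui7, a multi-walled carbon nanotube, suspended in it. All mice were of the same strain and sex, received a single intratracheal instillation under anaesthesia, and were killed 24 h later. Each lung (Cy5) was hybridised together with reference RNA made from a pool of mouse cell lines (Cy3), so the unit throughout is the log2 ratio of lung over reference after loess normalisation, and each fold change is the difference of such ratios from control with dose and slide fitted together in limma. A member is called where the adjusted p is at most 0.05 over all 55681 probes and the change is at least 1.5-fold.

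MMPs are zinc enzymes, secreted or held at the cell surface as inactive precursors, that cleave collagens, elastin, gelatin and other parts of the extracellular matrix. ADAMTS proteases are secreted relatives with thrombospondin repeats, several of which cut the large proteoglycans aggrecan and versican. Both are held in check by the tissue inhibitors of metalloproteinases (TIMPs), and plasmin, furin and other proteases remove the propeptide that keeps them inactive. In the lung they are known for matrix turnover, for the passage of leukocytes through tissue and for the loss of elastin in emphysema. RNA levels say nothing of how much enzyme is active.

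At 162 µg, Adamts4 and Mmp14 were called higher, at 18 µg Mmp14 was, and at 54 µg Adamts9 was, while no member was called lower at any dose. Over the 10 members the median log2 fold change reached 0.25, 0.35 and 0.51 with rising dose, beside -0.02, -0.01 and -0.01 over all 16458 genes. The fold change was above 0 in 6, 8 and 9 of the 10 members at these doses, against 46.4%, 47.6% and 48.8% of all genes, although the signs of Mmp2, Mmp8, Mmp9, Mmp12 and Adamts1, and of Adamts9 at 18 µg, turned under other ways of scaling the arrays. The members were chosen with earlier results of these data known, so neither comparison with all genes is independent of that choice. The other expressed MMP and ADAMTS genes had medians of 0.01 and 0.06 at 162 µg. Of all genes, 0.674% were called higher at 18 µg, 0.249% at 54 µg and 3.34% at 162 µg. Every treated mouse lay above every control for Mmp14 and Adamts4 at 18 µg, for Adamts4 and Adamts9 at 54 µg, and for Mmp14 and Adamts4 at 162 µg. That was so for 1.41%, 1.53% and 3.75% of all genes. In whole lung RNA, fewer cells of a type and less RNA per cell cannot be told apart, and the same holds for more of either.

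**Figure D1:**
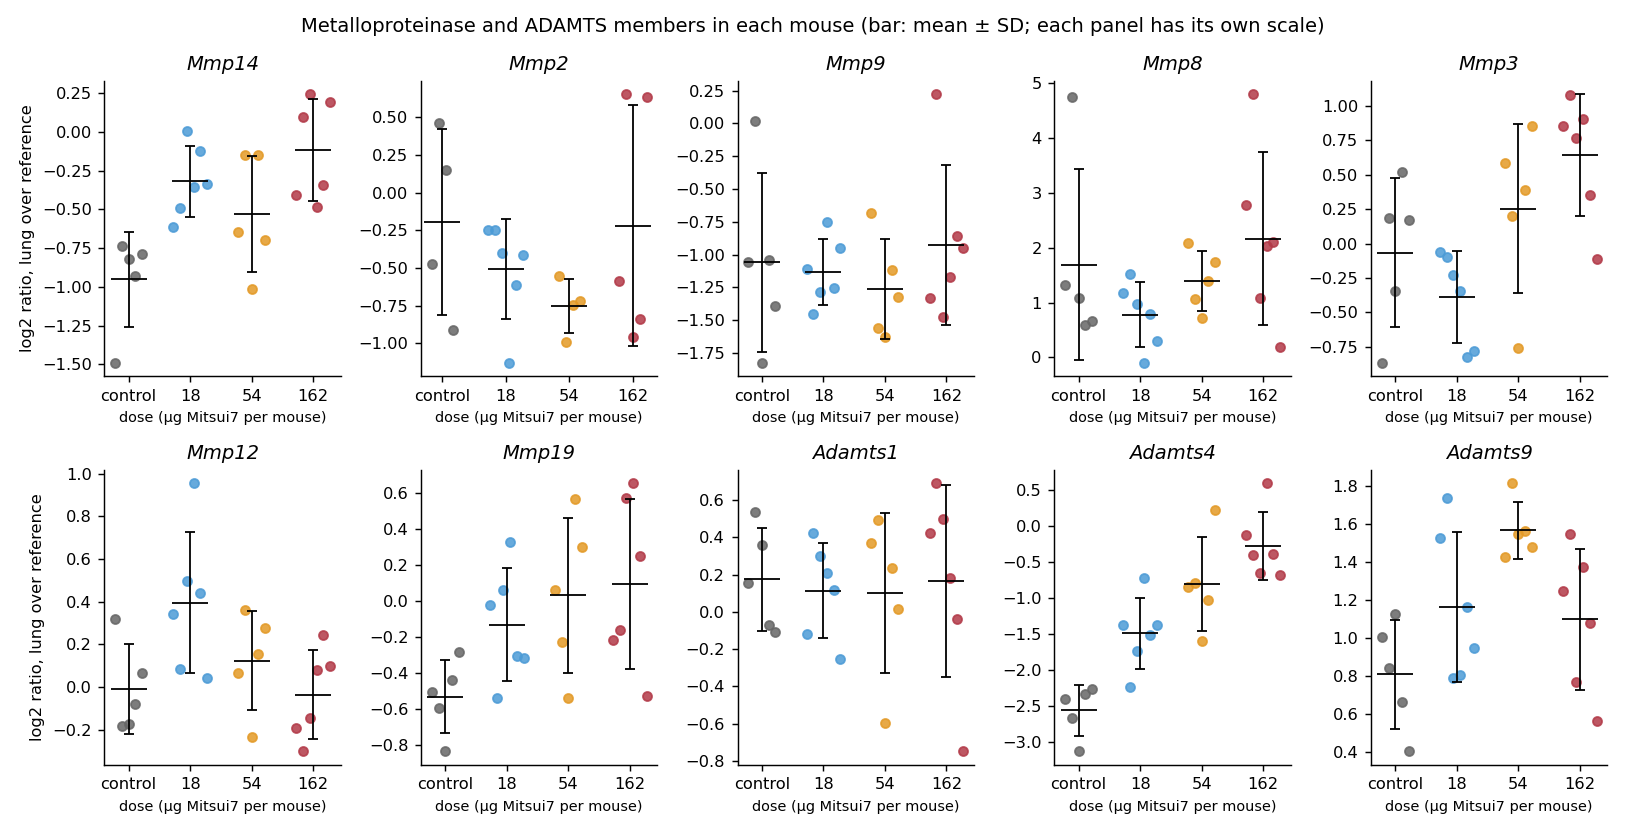
Log2 ratio of lung over reference RNA (vertical axes, each panel with its own scale) of the 10 members in each mouse by dose in µg; points are mice and bars the mean ± SD of a group. Adamts4 lies between -3.13 and -2.26 in controls and between -0.68 and 0.60 at 162 µg, and control replicate 2 and 162 µg replicate 2 stand far above the other mice for Mmp8.

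Of the arrays, 3 or 4 lay on each of 7 slides, and 2 slides held no control. Relative to local background, median Cy5 signals of the control arrays lay between 1.52 and 2.05, and those of the 18, 54 and 162 µg arrays between 1.24 and 2.11, 1.37 and 2.07, and 1.18 and 2.50, which limits what can be read from dim probes. The labelled tissue was borne out by its markers: 8 of 9 lung epithelial markers, surfactant proteins among them, were expressed, with a mean log2 ratio of 4.84 to 6.56 over the mice. Of the 54 µg group, replicate 3 had the lowest ratio for 9 of the 10 members. Its Cy5 signal over background was 1.40, and 58.1% of its probes lay above background, the lowest share of its group. Replicate 4, with 1.37 and 64.3%, was the lowest for 0 members. Replicate 6 of the 162 µg group was the lowest of its group for 6 of the 10, and its signal over background, 1.18, was the lowest of the 22 arrays. The part of signal strength in these ratios was not tested.

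RefSeq's promoter table of the mouse genome (GRCm38.p6) held 6 of the 10 members, with 7 starts. It held none for Mmp2, Mmp9, Mmp19 or Adamts4. The 250 bases before the start are printed for the 3 members with an entry that were called in any comparison here, to show what these promoters do and do not have in common. Mmp14 lies at chr14:54431348-54431597 (plus strand), Adamts9 at chr6:92943535-92943784 (minus strand) and Mmp3 at chr9:7445572-7445821 (plus strand). Capitals mark matches to the AP-1 site TGANTCA, the TATA box TATAAA and the GC box GGGCGG, where N is any base, both strands were searched and no 2 matches overlap.
Mmp14: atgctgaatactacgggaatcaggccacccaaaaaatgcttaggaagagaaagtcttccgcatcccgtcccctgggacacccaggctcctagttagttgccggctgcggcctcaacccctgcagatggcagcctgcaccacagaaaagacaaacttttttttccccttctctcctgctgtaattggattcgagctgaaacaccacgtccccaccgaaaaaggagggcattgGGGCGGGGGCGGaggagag
Adamts9: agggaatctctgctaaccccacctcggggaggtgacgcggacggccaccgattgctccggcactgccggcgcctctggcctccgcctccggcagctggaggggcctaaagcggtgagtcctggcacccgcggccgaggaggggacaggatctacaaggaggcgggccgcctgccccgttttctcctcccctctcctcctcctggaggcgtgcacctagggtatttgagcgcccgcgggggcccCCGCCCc
Mmp3: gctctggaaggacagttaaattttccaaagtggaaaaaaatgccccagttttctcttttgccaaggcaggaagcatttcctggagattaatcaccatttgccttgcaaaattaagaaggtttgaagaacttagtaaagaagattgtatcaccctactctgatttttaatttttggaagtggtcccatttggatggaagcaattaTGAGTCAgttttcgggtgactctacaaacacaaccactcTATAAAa
Mmp14 had 2 GC boxes side by side, the first beginning 19 bases before the start, and neither of the other motifs. Adamts9 had 1 GC box, 7 bases before the start and on the opposite strand. Mmp3 alone of these 3 had an AP-1 site, beginning 46 bases before the start, and a TATA box, beginning 7 bases before it. Over 32851 promoter entries of the same length, 6.75% held the AP-1 letters, 12.4% the TATA box and 32.7% the GC box. The STAT letters TTCNNNGAA (7.02% of entries) were found in none of the 6 members. A match is a string of letters and not a binding site.

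Mmp14 encodes a collagenase anchored in the cell membrane that cleaves fibrillar collagen and activates pro-MMP2 at the cell surface. In the 5 controls its log2 ratio was -1.49, -0.74, -0.82, -0.93 and -0.79. It ran from -0.62 through a median of -0.35 to 0.01 in the 6 mice at 18 µg and from -0.49 through -0.12 to 0.24 in the 6 mice at 162 µg. Both groups lay wholly above the controls, and control replicate 1 lay well below the other 4 controls. At 54 µg the 5 mice had -0.64, -0.15, -1.01, -0.15 and -0.70, so that 4 of 5 were above every control and replicate 3 fell among them. Mmp14 was thus 1.66-fold higher at 18 µg (log2 fold change 0.73, standard error 0.14, adjusted p = 0.0223 in limma). It was 1.78-fold higher at 162 µg (0.83, standard error 0.14, adjusted p = 0.00263). The 54 µg mice differed by 0.52 (0.15, adjusted p = 0.244), which was not called. Between doses no difference was called: 162 µg differed from 18 µg by 0.10 (95% interval -0.18 to 0.39, adjusted p = 0.796) and from 54 µg by 0.32 (95% interval 0.01 to 0.62, adjusted p = 0.606). Within slides that also held a control, the difference was above 0 in 4 of 4 slides at 18 µg (0.25 to 0.94), 3 of 3 at 54 µg (0.64 to 0.84) and 4 of 4 at 162 µg (0.33 to 1.17). The call at 18 µg was lost without control replicate 1, 4 or 5 or 18 µg replicate 1 or 5, where the change was 0.66 to 0.76 with an adjusted p of 0.0562 to 0.103. The call at 162 µg held with each of the 22 mice left out. Median centring in place of loess ended both calls (0.48, adjusted p = 0.280, at 18 µg and 0.57, adjusted p = 0.151, at 162 µg), and in all 7 of 15 alternatives ended the first and 2 the second.

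Mmp2 encodes gelatinase A, which degrades denatured collagen and the type IV collagen of basement membranes and is made mainly by mesenchymal cells. Its 22 Cy5 signals were well above background, but after spots marked as outliers were left out it had no value on the 3 arrays of one slide (control replicate 3, 54 µg replicate 2 and 162 µg replicate 2), so its fit rests on 19 mice. The 4 controls with a value had -0.47, 0.46, 0.15 and -0.91, and the 4 mice at 54 µg -0.55, -0.99, -0.74 and -0.72. The 6 mice at 18 µg ran from -1.13 through -0.41 to -0.25, and the 5 mice at 162 µg had -0.59, 0.65, -0.96, -0.84 and 0.64. All groups overlapped, and at 162 µg replicates 3 and 6 lay far above the other 3. Against control the changes were -0.23 (95% interval -0.74 to 0.27), -0.31 (-0.86 to 0.24) and 0.06 (-0.46 to 0.58) on the log2 scale at the 3 doses, none of them called. The intervals at 18 and 54 µg include a 1.5-fold fall, and that at 162 µg stops short of a 1.5-fold change either way.

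Mmp9 encodes gelatinase B, a basement membrane gelatinase that neutrophils store in their granules and macrophages secrete. Its log2 ratio in controls was -1.06, 0.02, -1.82, -1.04 and -1.39. It ran from -1.45 through -1.18 to -0.75 in the 6 mice at 18 µg, and from -1.48 through -1.06 to 0.22 in the 6 at 162 µg. At 54 µg it was -0.68, -1.56, -1.63, -1.12 and -1.32. All groups overlapped, and the 2 ratios above 0 were those of control replicate 2 and 162 µg replicate 2. Its log2 fold changes were -0.06 (95% interval -0.74 to 0.62), -0.22 (-0.94 to 0.51) and 0.18 (-0.50 to 0.85), none called.

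Mmp8 encodes neutrophil collagenase, another granule enzyme. Its ratio in controls was 1.33, 4.76, 1.09, 0.59 and 0.67, and at 54 µg 2.08, 1.06, 0.71, 1.39 and 1.73. It ran from -0.10 through 0.88 to 1.52 at 18 µg (6 mice) and from 0.18 through 2.07 to 4.80 at 162 µg (6 mice). Control replicate 2 and 162 µg replicate 2 again stood apart, and the 4 other controls lay between 0.59 and 1.33. Mmp8 had log2 fold changes of -0.51 (95% interval -1.78 to 0.75), 0.19 (-1.16 to 1.54) and 0.81 (-0.45 to 2.08), none called, with the widest intervals of the members. Without control replicate 2 it became 0.22 at 18 µg, 0.73 at 54 µg and 1.55 at 162 µg, still not called. Without 162 µg replicate 2 it was 0.10 at 162 µg. The reference gave a signal well above background for this probe on 1 of 22 arrays, so its ratio has a denominator at or near background on most arrays.

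The same 2 mice had the highest neutrophil markers. Of 16 such markers 15 were expressed, from S100a8 and S100a9 to Csf3r and Cxcr2, and Ly6g had no probe named here. Their mean log2 ratio was 3.58 in control replicate 2 and 1.81 to 2.20 in the other 4 controls. It was 3.79 in 162 µg replicate 2 and 1.98 to 2.83 in the other 5 mice of that group, against 1.87 to 2.34 at 18 µg and 2.11 to 2.73 at 54 µg. Of the 15, the decoy interleukin 1 receptor Il1r2 alone was called, higher at 162 µg (log2 fold change 2.36, standard error 0.48, adjusted p = 0.00749). The part of neutrophil number in the ratios of Mmp8 and Mmp9 was not tested.

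**Figure D2:**
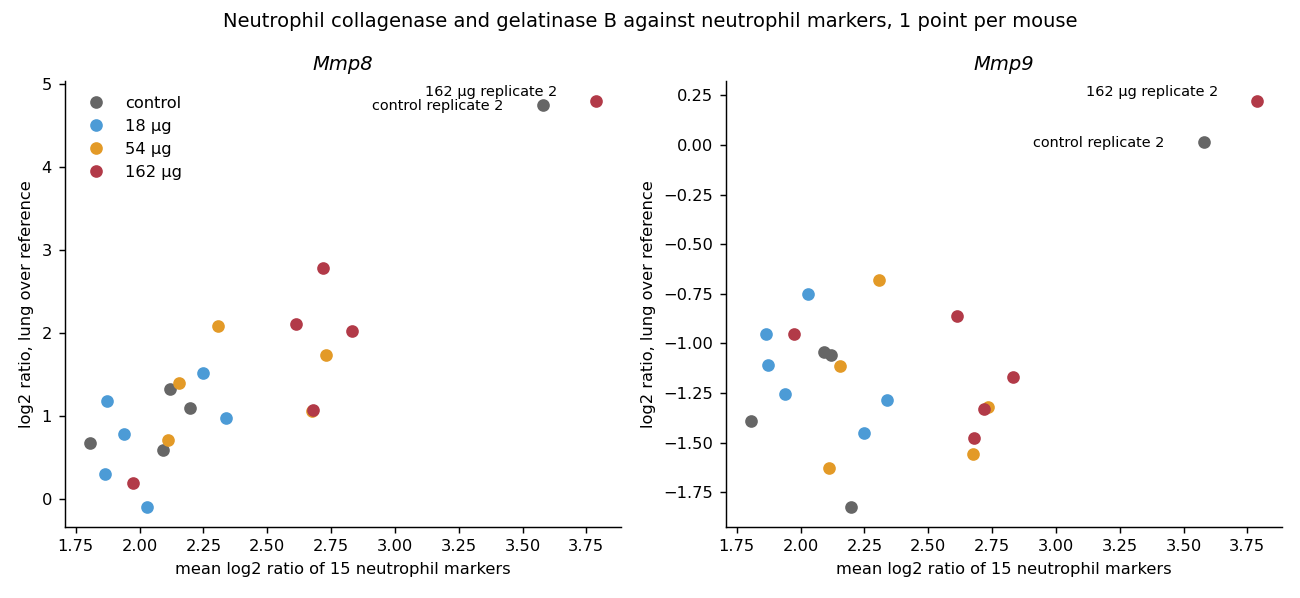
Log2 ratio of Mmp8 (left) and Mmp9 (right) over reference RNA against the mean log2 ratio of 15 neutrophil markers, 1 point per mouse, coloured by dose. Control replicate 2 and 162 µg replicate 2 lie alone at the upper right of both panels, at marker means of 3.58 and 3.79.

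Mmp3 encodes stromelysin 1, which cleaves proteoglycans, laminin and fibronectin and activates other pro-MMPs. Its ratio was -0.86, 0.19, -0.34, 0.52 and 0.17 in controls and 0.58, 0.20, -0.76, 0.39 and 0.85 at 54 µg. The 6 mice at 18 µg ran from -0.82 through -0.29 to -0.06, and the 6 at 162 µg from -0.11 through 0.81 to 1.08. No group was apart from the controls, but 5 of 6 mice at 162 µg lay above every mouse at 18 µg. Against control Mmp3 stood at -0.22 on the log2 scale (standard error 0.29, adjusted p = 0.790), 0.54 (0.31, adjusted p = 0.693) and 0.80 (0.29, adjusted p = 0.128) in limma. Between doses, 162 µg was higher than 18 µg by 1.01 (standard error 0.27, adjusted p = 0.0409), which is 2.02-fold and was called. Of all genes, 3.34% were called higher in that comparison and 1.64% lower. The call rested on several mice: it held with 8 of the 22 left out in turn and was lost without control replicate 3, any of 18 µg replicates 2 to 6, 54 µg replicate 1, 2 or 4, or any of 162 µg replicates 1 to 5 (change 0.84 to 1.12, adjusted p 0.0519 to 0.115). It was also lost in 4 of 15 alternatives, with 0.69 (adjusted p = 0.248) in the deposited table. Within slides, Mmp3 was above the control in 4 of 4 slides at 162 µg (0.18 to 1.42), 3 of 3 at 54 µg (0.22 to 1.44) and 1 of 4 at 18 µg.

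Mmp12 encodes macrophage elastase, the enzyme of alveolar macrophages that degrades elastin. Of its 2 probes, one passed the expression filter, and its Cy5 signal was well above background on 10 of 22 arrays (2, 4, 3 and 1 of the control, 18, 54 and 162 µg arrays). On that probe the controls had 0.32, -0.18, -0.17, -0.08 and 0.07, the 6 mice at 18 µg ran from 0.04 through 0.39 to 0.96, and 4 of those 6 were above every control. The ratio was 0.07, 0.36, -0.23, 0.15 and 0.28 at 54 µg and ran from -0.30 through -0.03 to 0.24 at 162 µg, overlapping the controls. With rising dose this probe gave changes of 0.37 on the log2 scale (standard error 0.16, adjusted p = 0.266), 0.06 (0.17, adjusted p = 0.976) and -0.04 (0.16, adjusted p = 0.956). The second probe was well above background in lung RNA on 0 of 22 arrays. Of 9 alveolar macrophage markers, all expressed, Chil3 was called higher at 18 µg (log2 fold change 1.74, adjusted p = 0.0452) and Marco, a scavenger receptor, at 162 µg (1.51, adjusted p = 0.00451). The Chil3 call was lost with 15 of the 22 mice left out in turn (change 1.41 to 1.77, adjusted p 0.0510 to 0.167). The mean log2 ratio of the 9 markers lay between 3.32 and 3.79 in controls, and between 3.09 and 4.15, 3.28 and 4.26, and 3.31 and 4.44 with rising dose. Of 7 expressed markers of recruited monocytes or macrophages (of 8, Ly6c2 having no probe named here), Arg1 was called at every dose (2.06, 2.92 and 1.76), though not with 14, 7 and 9 of the 22 mice left out. The mean of these 7 lay between 1.38 and 2.77 in controls, and between 1.15 and 2.17, 1.16 and 2.69, and 1.31 and 2.83 with rising dose. The fold change was above 0 for 5, 5 and 7 of the 9 alveolar macrophage markers with rising dose, with a median of 0.44 at 162 µg. Among the 7 recruited markers it was above 0 for 4, 6 and 3, with a median of -0.16 at 162 µg. Whether macrophage number bears on Mmp12 was not tested.

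Mmp19 encodes a secreted protease of epithelium, vessels and macrophages that cleaves basement membrane proteins. Its ratio was -0.50, -0.59, -0.83, -0.44 and -0.28 in controls and 0.06, -0.23, -0.54, 0.57 and 0.30 at 54 µg. It ran from -0.54 through -0.16 to 0.33 at 18 µg and from -0.53 through 0.05 to 0.66 at 162 µg. Above every control were 3 of 6, 4 of 5 and 5 of 6 mice at 18, 54 and 162 µg. Against control Mmp19 stood at 0.35 on the log2 scale (standard error 0.20, adjusted p = 0.445), 0.57 (0.22, adjusted p = 0.427) and 0.64 (0.20, adjusted p = 0.0755), so none was called. At 162 µg it was called without 54 µg replicate 5 or 162 µg replicate 6 (0.69 and 0.74, adjusted p 0.0332 and 0.0319), and at 54 µg without 54 µg replicate 3 (0.78, adjusted p = 0.0283). Of 15 alternatives, 3 called it at 162 µg in limma. They included the deposited table (0.71, adjusted p = 0.0191) and the replicate number as a block (0.71, adjusted p = 0.0175). The remaining one, the 2 groups alone (0.65, adjusted p = 0.0331), also called it at 54 µg (0.67, adjusted p = 0.0308). With 2 groups alone and slide fitted, only slides holding both groups inform the difference, 3 at 54 µg and 4 at 162 µg.

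Adamts4 encodes aggrecanase 1, which cuts aggrecan and versican and is known to be induced by inflammatory cytokines. Its ratio was -2.40, -2.66, -3.13, -2.34 and -2.26 in the 5 controls. It ran from -2.23 through -1.44 to -0.71 in the 6 mice at 18 µg. At 54 µg it was -0.84, -0.79, -1.59, -1.02 and 0.22, and at 162 µg it ran from -0.68 through -0.40 to 0.60. All treated mice lay above all controls. All 6 mice at 162 µg lay above all 6 at 18 µg, while 54 µg overlapped both. The share of all genes so separated between doses was not computed. Against control Adamts4 stood at 0.90 on the log2 scale (standard error 0.30, adjusted p = 0.140), 1.54 (0.32, adjusted p = 0.0662) and 2.17 (0.30, adjusted p = 5.34e-04) in limma, or 1.87-fold, 2.92-fold and 4.51-fold, and only the last was called. The difference between 162 and 18 µg, 1.27 (standard error 0.28, adjusted p = 0.0151 in limma), was called as well, where 3.34% of all genes were called higher. The steps from 18 to 54 µg (0.64, 95% interval 0.01 to 1.27, adjusted p = 0.499) and from 54 to 162 µg (0.63, 95% interval -0.00 to 1.26, adjusted p = 0.637) were not.

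Within slides the Adamts4 difference from control was above 0 in 4 of 4 slides at 18 µg (0.43 to 1.03), 3 of 3 at 54 µg (1.24 to 2.34) and 4 of 4 at 162 µg (1.69 to 2.72). The 162 µg call held with each of the 22 mice left out. At 54 µg it was called without 18 µg replicate 4, 54 µg replicate 3, 54 µg replicate 5 or 162 µg replicate 4 (1.30 to 1.84, adjusted p 0.00176 to 0.0478), and at 18 µg without 54 µg replicate 5 (0.99, adjusted p = 0.0437). The difference between 162 and 18 µg was not called without 18 µg replicate 2 (1.13, adjusted p = 0.0563) or 162 µg replicate 1 (1.14, adjusted p = 0.0614). Of 15 alternatives, 1 ended the call at 162 µg (no normalisation, 1.78, adjusted p = 0.257) and 8 brought a call at 54 µg. The Cy5 signal was well above background on 2 of 5 control arrays, 5 of 6 at 18 µg, 4 of 5 at 54 µg and 6 of 6 at 162 µg. On the other 3 control arrays it was not well above background.

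Adamts9 encodes a widely made secreted protease that cuts aggrecan and versican. Its ratio was 1.01, 0.84, 1.13, 0.66 and 0.40 in controls and 1.43, 1.81, 1.55, 1.56 and 1.48 at 54 µg. It ran from 0.79 through 1.05 to 1.74 at 18 µg and from 0.56 through 1.16 to 1.54 at 162 µg. The 54 µg mice lay above every control, whereas 3 of 6 mice did so at each of the other doses. Relative to control Adamts9 stood at 0.48 with the lowest dose on the log2 scale (standard error 0.15, adjusted p = 0.103), at 0.82 at 54 µg (0.16, adjusted p = 0.0375) and at 0.39 at 162 µg (0.15, adjusted p = 0.150). The middle dose alone was called, but 162 µg differed from it by -0.44 (95% interval -0.75 to -0.13, adjusted p = 0.391 in limma), which was not called. Of all genes 0.00% were called in either direction between these doses. Of the 39549 expressed probes, 4038 had an unadjusted p under 0.05 there. The call at 54 µg held with 10 of 22 mice left out. It was lost without control replicate 1, 2, 3 or 5, 18 µg replicate 3 or 5, 54 µg replicate 2 or 4, or 162 µg replicate 1, 2, 3 or 5 (change 0.73 to 0.88, adjusted p 0.0503 to 0.179), and in 5 of 15 alternatives, among them the Cy5 channel alone (0.70, adjusted p = 0.122). Within slides, all differences from control were above 0, from 0.11 to 1.16.

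Adamts1 encodes another aggrecan and versican protease that also has antiangiogenic activity. In controls its ratio was 0.16, 0.54, 0.36, -0.07 and -0.11, and at 54 µg 0.37, 0.49, -0.60, 0.24 and 0.02. The 6 mice at 18 µg ran from -0.25 through 0.16 to 0.42 and the 6 at 162 µg from -0.75 through 0.30 to 0.69, and all groups overlapped. Log2 fold changes were 0.15 (95% interval -0.21 to 0.52), 0.17 (-0.21 to 0.56) and 0.14 (-0.22 to 0.51), none called. Each of these intervals leaves out a 1.5-fold change in both directions. The Cy5 signal was well above background on 22 of 22 arrays.

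**Figure D3:**
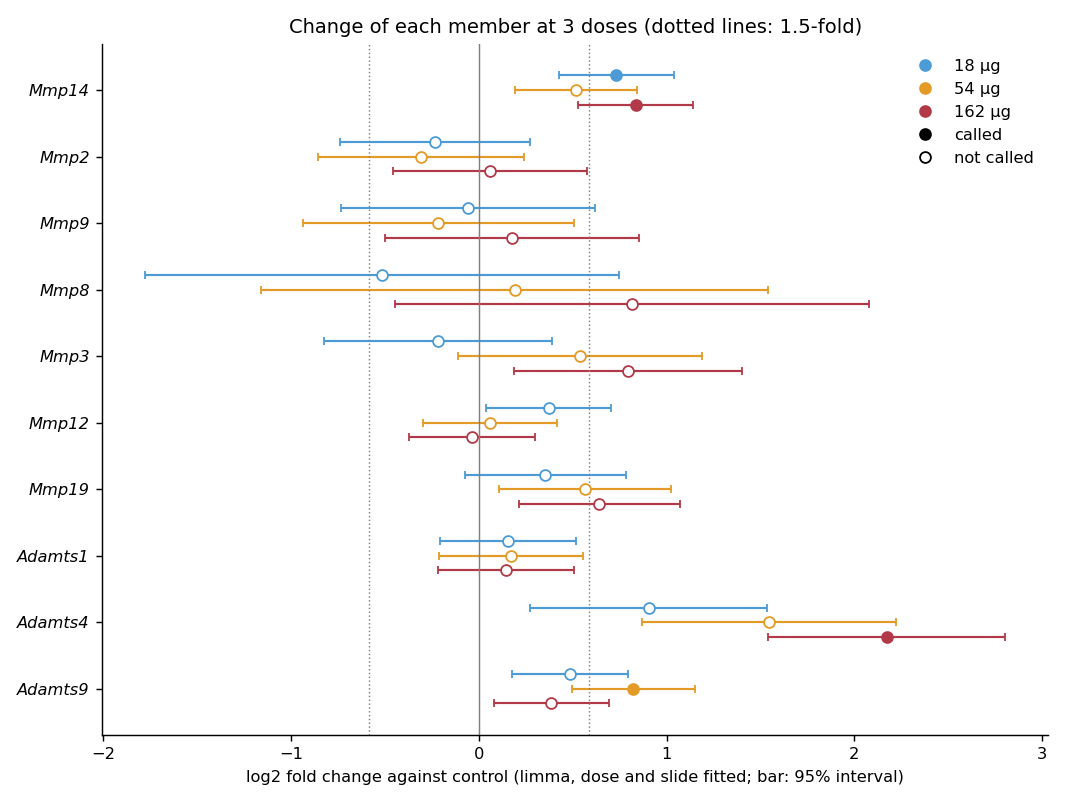
Log2 fold change against control (horizontal axis, limma) of each member at 18, 54 and 162 µg with its 95% interval; filled points were called, dotted lines mark 1.5-fold. Adamts4 steps from 0.90 to 1.54 to 2.17, Adamts9 is largest at 54 µg with 0.82, and the intervals of Mmp8 are the widest.

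**Figure D4:**
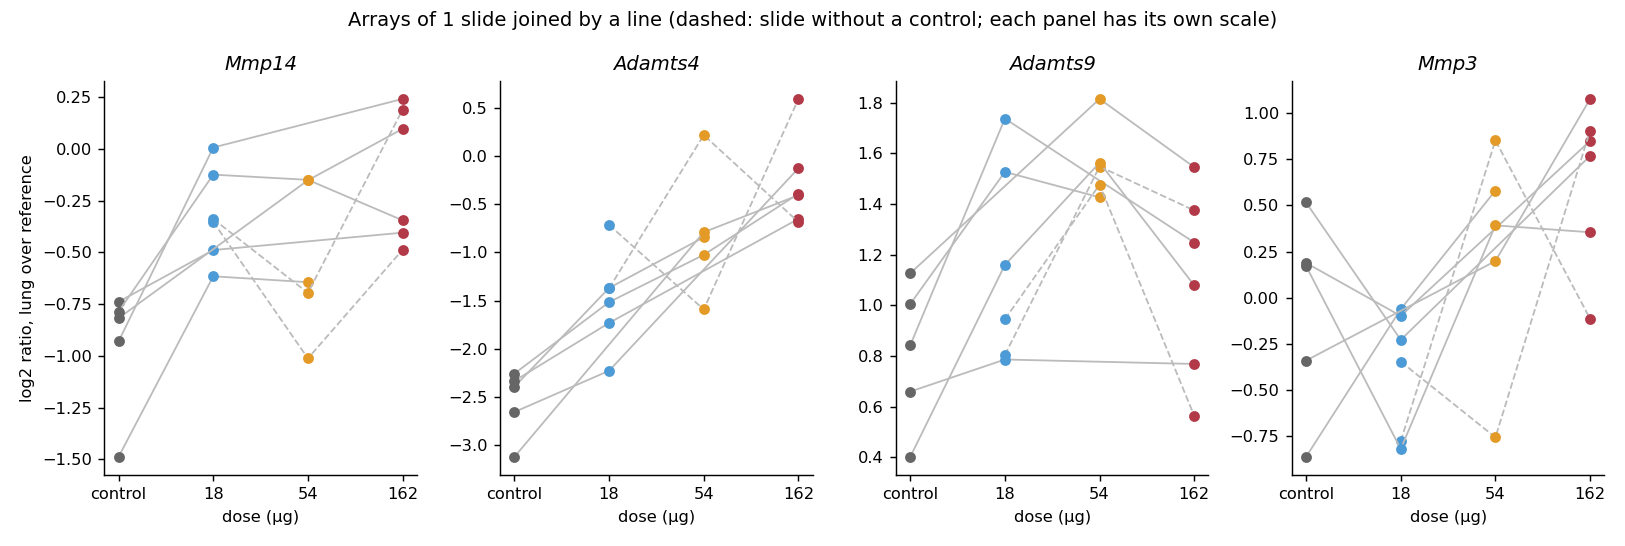
Log2 ratio of lung over reference RNA of Mmp14, Adamts4, Adamts9 and Mmp3 by dose in µg, with the arrays of 1 slide joined by a line, dashed for the 2 slides without a control. Every solid line of Mmp14, Adamts4 and Adamts9 lies above its control at each dose, while Mmp3 lay below the control in 3 of 4 slides at 18 µg.

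Between doses, Mmp3 and Adamts4 were called higher at 162 than at 18 µg, 0 members were called between 54 and 18 µg (0.0182% of all genes higher, 0.0122% lower) and 0 between 162 and 54 µg. At an unadjusted p under 0.05 in limma, 4900 and 4038 of the 39549 expressed probes differed in the last 2 comparisons. All dose comparisons with control share the same 5 control mice.

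Members were also set beside the genes whose log2 ratio ran most like theirs over the arrays, as a description. Nearest to Adamts4 were Cxcl1, a neutrophil chemokine (Pearson r = 0.955, 22 arrays), the cytokine Il6 (r = 0.928, 22 arrays) and the zinc transporter Slc39a14 (r = 0.915, 22 arrays). Nearest to Mmp14 were Mfsd10, a membrane transporter (r = 0.843, 21 arrays), Capns1, the small calpain subunit (r = 0.838, 22 arrays), and the AP-1 factor Junb (r = 0.828, 21 arrays). These arrays share their reference RNA, their slides and the 4 dose groups.

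The other genes of the family gave few calls. Of 16 other MMP genes 8 were expressed and 0 were called at any dose, with log2 fold changes from -0.52 (Mmp13) to 0.43 (Mmp7, matrilysin of airway epithelium) at 162 µg. The lung signal of these 2 probes was well above background on 3 and 10 of 22 arrays. Of 16 other ADAMTS genes 13 were expressed and 0 were called. Of 13 ADAM genes, relatives of which many are membrane-bound and several shed receptors and growth factors, all were expressed. Adam22, which lacks protease activity, was called lower at 18 µg (-0.78, adjusted p = 0.0233 in limma) and 162 µg (-0.77, adjusted p = 0.00696). At 54 µg it was -0.70 (adjusted p = 0.113). Its call at 18 µg was lost without control replicate 1 or 5 or 18 µg replicate 1, 3 or 5 (-0.82 to -0.72, adjusted p 0.0509 to 0.104). Of all genes, 1.44%, 0.140% and 3.53% were called lower at 18, 54 and 162 µg, and 0.674%, 0.249% and 3.34% higher. At such shares, 0 calls among 8 MMP or 13 ADAMTS genes tell little about them. Median log2 fold changes at 162 µg were 0.01 for the other MMPs, 0.06 for the other ADAMTS and -0.06 for ADAM, beside -0.01 over all genes.

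Among 6 expressed inhibitors of 7 listed, Timp1 was called higher at every dose (log2 fold changes of 3.18, 3.72 and 3.59), and Timp3 (1.32, adjusted p = 9.25e-04) and Timp4 (0.98, adjusted p = 0.0212) at 162 µg. Activators and plasminogen system genes called higher at 162 µg included Plat, tissue plasminogen activator (1.08, adjusted p = 3.27e-04), Plaur, the urokinase receptor (0.74, adjusted p = 0.0231), and Furin, the convertase that cuts the propeptide of Mmp14 (0.77, adjusted p = 0.0168). At 18 and 54 µg 0 of these 3 were called. The call of Plaur was lost without control replicate 3, 4 or 5 or 162 µg replicate 1 or 2 (0.66 to 0.74), that of Furin without control replicate 4 or 5 or 162 µg replicate 3 (0.56 to 0.71), and those of Timp1 at 18 µg, Timp1 at 54 µg and Timp4 with 3, 8 and 6 of the 22 mice left out. Of 14 substrates and provisional matrix genes, all expressed, Has1, a hyaluronan synthase, was called higher at 162 µg (1.31, adjusted p = 0.0325) and Bcan, brevican, a proteoglycan cut by Adamts4, lower (-0.99, adjusted p = 0.0169). The call of Bcan was lost without control replicate 5 or 162 µg replicate 1 (-0.81 and -0.79). It held in 13 of 15 alternatives, the weakest change being -0.67, with the median over its expressed probes. The call of Has1 was lost with 9 of the 22 mice left out (1.05 to 1.38). Aggrecan and versican, the main ADAMTS substrates, had 0.03 (adjusted p = 0.945) and 0.11 (adjusted p = 0.895) at 162 µg.

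**Figure D5:**
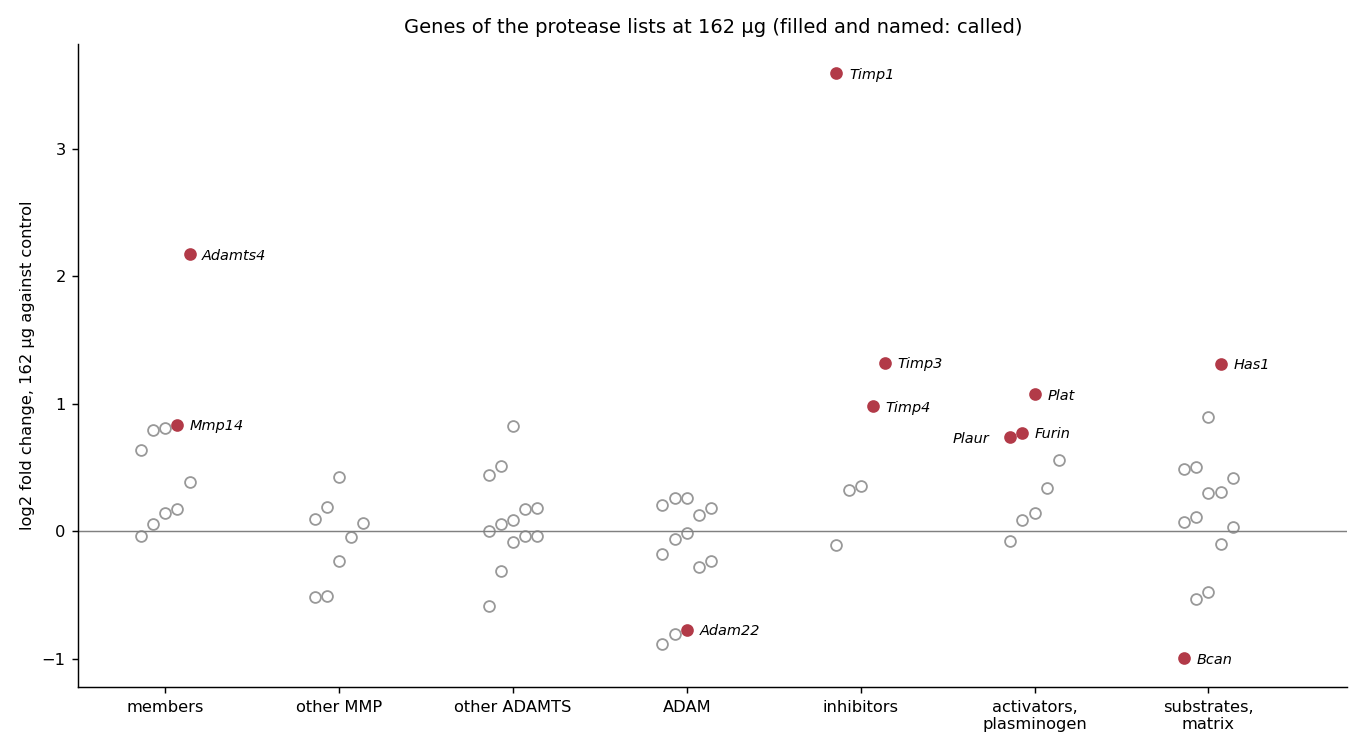
Log2 fold change at 162 µg against control (vertical axis) of the expressed genes reported from the 7 protease-related lists, 1 point per gene; filled and named points were called. No other MMP or ADAMTS gene is filled, and 3 inhibitors and 3 activator or plasminogen genes are, Timp1 with 3.59. Of all genes, 3.34% were called higher at this dose.

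Markers of the connective tissue cells that make many of these enzymes were measured beside them. The 8 fibroblast markers, all expressed, had a mean log2 ratio of 1.44 to 1.78 in controls and 1.02 to 1.36 at 162 µg, so that the groups did not overlap, with 0.75 to 1.47 at 18 µg and 1.17 to 1.47 at 54 µg. The share of all genes with every 162 µg mouse below every control was not computed. Among the 8 fibroblast markers, Col3a1 alone had all 6 mice of the highest dose below every control. Col3a1 was called lower at that dose (-0.96, adjusted p = 0.0292 in limma). The call was lost with 8 of the 22 mice left out (adjusted p 0.0512 to 0.117). Col1a2 had -0.577 at 162 µg (adjusted p = 0.0308 in limma), just short of 1.5-fold, with 2 of 6 mice below every control. The 5 smooth muscle markers, all expressed, ran from 0.96 to 2.72 in controls and from 1.06 to 3.00 at 162 µg and none was called. The 8 endothelial markers, all expressed, ran from 4.00 to 4.89 in controls and 4.05 to 5.11 at 162 µg, and Kdr was called higher at 18 µg (0.65, adjusted p = 0.0470), a call lost with 17 of the 22 mice left out (0.54 to 0.75). The fold change at 162 µg was below 0 for 5 of the 8 fibroblast markers and above 0 for 3, among them Pdgfra, a growth factor receptor, with 0.56 (adjusted p = 0.192) and 5 of 6 mice above every control. The part of cell composition in the ratios of Mmp14 and Adamts4 was not tested.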

How the data were processed

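The authors deposited intensity values of each array, the median spot signals of both channels, neither background-subtracted nor normalised. The scanner files name Feature Extraction 10.7.3.1. A series table of normalised log2 ratios was deposited too, and its normalisation is not given in the sources used here. This table was used as an alternative. Its columns correlated with the loess ratios at 0.834 to 0.998, so its direction is lung over reference. The 4 arrays of one slide stood apart in it (0.834 to 0.902), the others having 0.919 or more.

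Spots marked as outliers were left out, log2 ratios of Cy5 to Cy3 were normalised within arrays by loess (span 0.3) and replicate spots were reduced to their median, giving 55681 probes, of which 26413 were named through RefSeq accessions and 29268 carry no gene name here. R 4.3.3, with limma 3.58.1 and the data.table package (version 1.17.8), was used to fit dose and slide as fixed effects over 22 arrays (12 residual degrees of freedom), in place of the MAANOVA test of the study's methods. P was adjusted by Benjamini and Hochberg. A probe was expressed where Cy5 exceeded the trimmed mean (5%) plus 3 trimmed SDs of the array's 308 negative controls in 80% or more of any dose group's arrays. A gene is represented by its expressed probe with the highest mean intensity. Intervals are 95% intervals from limma. The fits were tested on simulated data.

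The members and lists were chosen with earlier results of these data known. Named are all members, the genes of the wider lists called at any dose against control, and the 3 genes most like each member called at 162 µg. The number of arrays limits the precision. Replicates are separate mice. Alternatives were other background corrections and normalisations, other slide terms, filters and thresholds, and leaving out each mouse. A gene of the wider lists is not reported here. The cultured cells of the study were not analysed here.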

Additional observations from a re-analysis of the deposited data

Results flagged for a closer look

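Among 40 combinations of member and group, 3 held a mouse far from the rest of its group by Dixon's test, and chance alone gives about 1 in 20, or 2. Control replicate 2 had an Mmp8 log2 ratio of 4.76, and the next control had 1.33. The 162 µg replicate 2 had an Mmp9 log2 ratio of 0.22, and the next mouse of its group had -0.86. Control replicate 1 had an Mmp14 log2 ratio of -1.49, and the next control had -0.93. Without that mouse the log2 fold change of Mmp14 at 18 µg was 0.67 (adjusted p = 0.103 in limma), and the call was lost.

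The change of 2 members differed between doses by the test of the difference itself. At 162 µg against 18 µg it was 1.01 for Mmp3 and 1.27 for Adamts4.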

How the results depend on the processing

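In total 15 alternatives and 22 fits with a mouse left out were run. Adamts4 and Mmp14 were called at 162 µg under 14 and 13 of the 15, and Mmp14 at 18 µg and Adamts9 at 54 µg under 8 and 10. The lung signal was not well above background on every array for Mmp8, Mmp9, Mmp12, Mmp19 and Adamts4, which limits their ratios. The cause of each change was not tested.

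The number of members called at 18 µg was 0 in place of 1 with median centring, without normalisation, in the deposited log2 table, without a slide term and with only the 2 groups compared. At 54 µg it was 0 in place of 1 with median centring, without normalisation and in the deposited table, 2 with quantile normalisation, with slide as a random block, with an intensity trend and with the median over probes, and 4 with only the 2 groups compared. At 162 µg it was 1 in place of 2 with median centring, 0 without normalisation, and 3 (Mmp19 added) in the deposited table, with the replicate block and with only the 2 groups compared. Equal counts hid other genes: with the Cy5 channel alone Adamts9 was called in place of Mmp14 at 18 µg and Adamts4 in place of Adamts9 at 54 µg, and without a slide term Adamts4 in place of Adamts9 at 54 µg. For 162 against 18 µg the number called was 1 in place of 2 with normexp correction. It was 0 with median centring, without normalisation and in the deposited table. In the fits of 2 groups alone, only slides holding both groups inform a difference. Against control these were at most 3 slides at 54 µg and 4 at 18 and 162 µg. The share of all genes called in those fits was not computed. Median centring and no normalisation moved the median log2 fold change of all genes to -0.26 and -0.42 at 18 µg, -0.04 and 0.13 at 54 µg and -0.18 and -0.21 at 162 µg.

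Over 31 pairs of mice with the same replicate number in different groups, deviations from the group means correlated at -0.25 to 0.63. The median was 0.21, and 18 pairs were over 0.1. Over 150 pairs with different numbers the median was -0.07, and 37 were over 0.1. Among the 20 same-number pairs on different slides the median was 0.09, and 9 were over 0.1. Over 24 pairs on the same slide in different groups the median was 0.28, and 18 were over 0.1. Whether the replicate numbers pair the mice was not tested. With the replicate number as a block in place of slide, 2 members were called at 54 µg (Adamts4 and Adamts9), at 18 µg Adamts4 was called (1.10, adjusted p = 0.0214 in limma) and Mmp14 was not (0.60, adjusted p = 0.0707), and at 162 µg Mmp19 was called as well (0.71, adjusted p = 0.0175).

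With single mice left out the number called was 0 to 2 at 18 µg, 0 to 3 at 54 µg, 2 to 4 at 162 µg, 0 to 2 for 162 against 18 µg, and 0 to 0 for the other dose pairs.

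Reversed directions concerned members that were not called. With the Cy5 channel alone they were Mmp2 at 162 µg (-0.0876), Mmp8 at 18 µg (0.10), Mmp9 at 18 µg (0.14) and Mmp12 at 162 µg (0.24). With median centring they were Adamts1 at 18 and 162 µg (-0.25 and -0.15), Mmp2 at 162 µg (-0.26) and Mmp12 at 162 µg (0.066). Without normalisation they were Adamts9 at 18 µg (-0.0057), Adamts1 at 18 and 162 µg (-0.41 and -0.17), Mmp2 at 162 µg (-0.36), Mmp9 at 54 µg (0.0117) and Mmp12 at 162 µg (0.0461). Without a slide term they were Adamts1 at 18, 54 and 162 µg (-0.061, -0.0715 and -0.0072), Mmp2 at 162 µg (-0.026) and Mmp8 at 54 µg (-0.29). With only the 2 groups compared they were Mmp2 at 54 and 162 µg (0.045 and -0.16) and Mmp9 at 54 µg (0.31). With the replicate block they were Adamts1 at 54 µg (-0.0715), Mmp2 at 162 µg (-0.10) and Mmp8 at 54 µg (-0.29). Mmp8 at 54 µg was -0.0925 with slide as a random block, and Mmp12 at 54 µg was -0.15 in the deposited table and -0.0391 with quantile normalisation.

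With a mouse left out, changes of sign fell within these ranges. At 18 µg Mmp2 ran from -0.36 to 0.0264, Mmp8 from -0.79 to 0.22 and Mmp9 from -0.29 to 0.33. At 54 µg Mmp8 ran from -0.20 to 0.73, Mmp9 from -0.56 to 0.0699 and Mmp12 from -0.0944 to 0.18. At 162 µg Mmp2 ran from -0.13 to 0.34, Mmp9 from -0.21 to 0.57 and Mmp12 from -0.0867 to 0.0429.

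For the 21 changes of wider-list genes, checked under the same alternatives after the data were seen, the call held in 245 of 315 combinations with an alternative and 351 of 462 with a mouse left out, with 0 reversals.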

Other observations

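Some genes of the wider lists came near the threshold at 162 µg and were picked out here after their values were seen. Tnc, the provisional matrix protein tenascin C, had log2 fold changes of 0.60, 0.94 and 0.90 at 18, 54 and 162 µg (adjusted p = 0.273, 0.237 and 0.0504 in limma). Mmp13, a collagenase, had -0.17, -0.33 and -0.52 (adjusted p = 0.681, 0.631 and 0.0591), but its lung signal was well above background on 3 of 22 arrays. Adamts15, another versican protease, had 0.15, 0.49 and 0.83 (adjusted p = 0.860, 0.709 and 0.0809). None of these was called.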
